A study of Mus musculus with 6 samples.

Results

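The genes described here are the fibroblast growth factor (FGF) ligands, the FGF receptors and the genes that FGF signaling switches on to restrain or carry out its own response. They were chosen by symbol: every Fgf gene, Fgfr1 to Fgfr4, Fgfrl1, the Sprouty genes Spry1 to Spry4, Spred1 to Spred3, the phosphatase Dusp6, and the ETS factors Etv1, Etv4 and Etv5. The rule found 38 genes among the 22180 genes measured, and each of the 38 had a probe set of its own. No filter on low values was applied, so all 38 were tested.

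The RNA came from KP1, a single mouse small cell lung cancer line derived from tumors of the Rb, p53 and p130 triple knockout model. Both groups carry that background: 3 control samples were transfected with an empty ires-GFP vector and 3 N1ICD samples with Notch1-ICD-ires-GFP, which encodes the intracellular domain of Notch1, the released and active form of the receptor. GFP+ cells were sorted 48 hours after transfection, and the RNA of each sample was hybridized to 1 Affymetrix Mouse Gene 2.0 ST array. The labels call the samples of a group biological replicates, and they do not name the promoter that drives the insert.

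FGF ligands are secreted proteins that bind receptor tyrosine kinases together with heparan sulfate chains on the cell surface. The bound receptors signal through the adaptor FRS2 and the RAS-ERK cascade, and ERK raises its own inhibitors, the Sprouty and Spred proteins and the phosphatase DUSP6, along with the ETS factors ETV1, ETV4 and ETV5. Because these inhibitors follow ERK activity, they are widely read as a transcript measure of it. In the embryonic lung, FGF10 from the mesenchyme acts on epithelial FGFR2 to drive branching, and amplified or raised FGFR1 is known in a subset of human small cell lung cancers.

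In N1ICD cells, 6 of the 38 genes rose and 3 fell, and the receptors Fgfr2 and Fgfr3 changed most. Fgfr2 rose 4.98-fold (a log2 change of 2.32 ± 0.16 SE, with n = 3 in each group), Fgfr3 rose 2.96-fold and Fgfr1 rose 1.45-fold, while Fgfr4 fell by 0.45 on the log2 scale. Of the 15 paracrine ligands and of the 7 Sprouty and Spred genes, 0 passed the limma test, next to 7.1% of all genes tested. With so few genes, these counts do not set either group apart from all genes. In each group 1 gene had an unadjusted limma p under 0.05, as had 4408 of all 22180 genes. The ETS factor Etv5 fell and Etv1 rose, and the intracellular homologous factors Fgf13 and Fgf14 changed in opposite directions. The test was limma's moderated fit over all genes, with an adjusted p under 0.05 taken as changed.

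The 9 changed genes are 23.7% of the 38, next to 7.1% of all genes tested. The 6 rises compare with 3.82% of all genes that rose, and the 3 falls with 3.27% that fell. The median difference was 0.08 on the log2 scale over the 38 genes and -0.02 over all genes tested. Of the 38 genes, 13 had an unadjusted limma p under 0.05, as had 4408 of all 22180 genes. In 15 of the 38 (39.5%) the groups did not overlap, next to 26.1% of all genes. Without control replicate 3 or N1ICD replicate 2, 3 of the 38 genes rose, and 2 fell on removal of any array except N1ICD replicate 2.

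**Figure D1:**
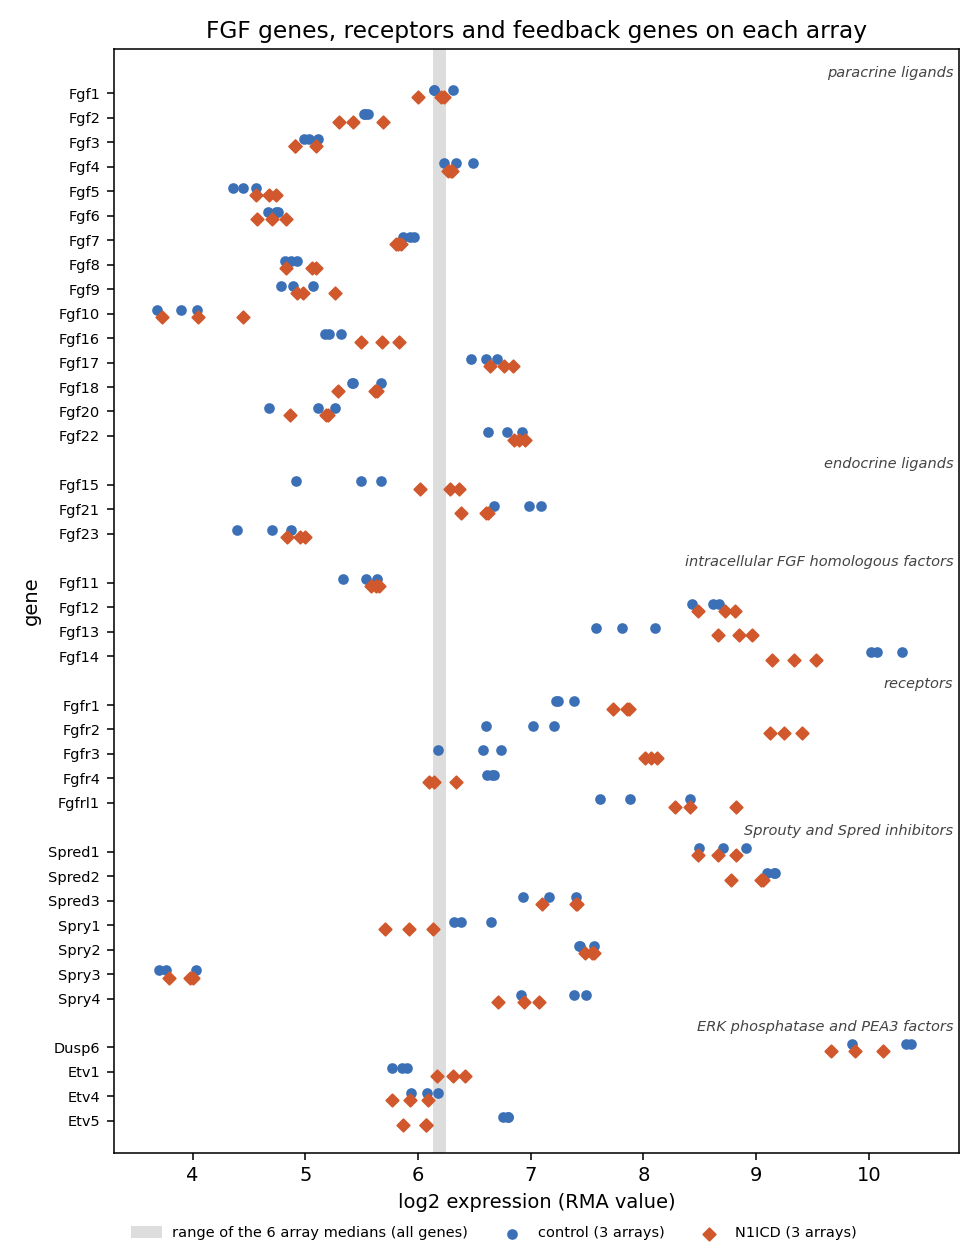
Log2 expression (RMA value) of the 38 genes on each of the 6 arrays, grouped by role. Circles are control arrays, diamonds are N1ICD arrays, and the grey band spans the 6 array medians, 6.14 to 6.24. The groups stand far apart for Fgfr2 and Fgfr3, and the points of most paracrine ligands lie left of the band.

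Array medians ran from 6.14 to 6.24 on the log2 scale, and the Notch1 probe set read 3.01-fold higher in N1ICD. Transcript of the transfected insert and of the cell's own Notch1 gene was not told apart. All 10 measured neuroendocrine markers, of 12 listed, had a mean above every array median, among them Chga and Uchl1, and by the test 2 of the 10 rose and 2 fell. Of the fibroblast markers 8 of 9, and of the macrophage markers 7 of 8, had a control mean below every array median. The summed log2 level of the 9 fibroblast markers was 50.5 to 51.62 in control and 50.63 to 51.33 in N1ICD, and that of the 8 macrophage markers 38.49 to 39.21 and 38.83 to 39.43. Within these lists Pdgfrb (0.89) and the macrophage marker Lyz2 (0.52) rose and Pdgfra fell (-0.74), as log2 changes past the limma test. The sum of 7 endothelial markers moved with the groups, from 41.37 to 42.19 in control to 45.69 to 46.65 in N1ICD. Of these 7, Kdr (log2 change 3.04) and Tek (1.06), both receptor tyrosine kinases, rose, from control means of 6.76 and 7.75. The others, Pecam1, Cdh5, Tie1, Egfl7 and Eng, differed by 0.07, -0.01, 0.09, 0.01 and 0.22 and did not pass the test. Their control means, from 4.92 (Cdh5) to 6.08 (Egfl7), lay below every array median. In RNA from many cells, a change in how many cells express a gene and a change per cell cannot be told apart.

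The paracrine ligands are the secreted FGFs that act on neighbouring cells. Their 15 differences ranged from -0.10 to 0.44 on the log2 scale, with a median of 0.07. The control means of 11 of the 15 lay below every array median. The arrays carry no measure of background here, so whether those ligands were expressed at all was not determined. Fgf10, the ligand of lung branching, read 4.04, 3.68 and 3.90 on the control arrays and 4.45, 3.73 and 4.05 on the N1ICD arrays. The groups overlapped, with a difference of 0.21 ± 0.18. Fgf2, the basic FGF that is a common growth supplement, had a control mean of 5.54 ± 0.02 (SD, n = 3) and an N1ICD mean of 5.47 ± 0.20. Fgf9, a ligand of lung epithelium and mesothelium, had a control mean of 4.91 ± 0.15 and an N1ICD mean of 5.06 ± 0.18. In both, the difference was smaller than the SD of the N1ICD arrays.

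Fgf16, a ligand of the Fgf9 subfamily, had the largest difference among the paracrine ligands. It read 5.32, 5.17 and 5.21 in control and 5.49, 5.83 and 5.68 in N1ICD. Every N1ICD array lay above every control array, a separation seen with N1ICD above in 11.1% of all genes. The difference of 0.44 ± 0.11 did not pass the test (limma adjusted p = 0.0619, between 0.0262 and 0.194 over the alternatives), and it passed without N1ICD replicate 1 (adjusted p = 0.0416).

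The endocrine ligands travel in the blood and need a Klotho protein as co-receptor. Fgf15, the mouse counterpart of human FGF19 and a brake on bile acid synthesis, read 5.67, 5.49 and 4.92 in control and 6.28, 6.02 and 6.36 in N1ICD. The N1ICD arrays were all higher, and control replicate 3 was the lowest. Fgf15 rose 1.82-fold (0.86 ± 0.19, limma adjusted p = 0.0356). A second, separate probe set of Fgf15 read 5.49 on average in control and 5.33 in N1ICD, a difference of -0.16 ± 0.11 with the opposite sign. The mean over both probe sets differed by 0.35 and did not pass the test (adjusted p = 0.164), and leaving out any array but control replicate 1 ended the call (adjusted p up to 0.11). Fgf21, a stress-induced metabolic hormone, read 6.67, 6.98 and 7.09 in control and 6.62, 6.60 and 6.38 in N1ICD. All N1ICD arrays lay below the control arrays, as for 15% of all genes, but the difference of -0.38 ± 0.13 did not pass the test (limma adjusted p = 0.152). Fgf23, the phosphate-regulating hormone, differed by 0.28 ± 0.14 (limma adjusted p = 0.308). The co-receptor genes Kl and Klb, which encode the Klotho proteins, differed by -0.03 ± 0.12 and 0.14 ± 0.11.

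The receptors are tyrosine kinases of the cell membrane, apart from the kinase-less Fgfrl1. Of the 5 genes, 3 were higher in N1ICD by the test, 1 was lower and 1 did not pass. Fgfr2 encodes the receptor through which mesenchymal FGFs reach epithelium. It read 6.60, 7.21 and 7.02 on the control arrays and 9.12, 9.25 and 9.41 on the N1ICD arrays. The lowest N1ICD array was far above the highest control array. The means were 6.94 ± 0.31 (SD, n = 3) and 9.26 ± 0.15, and the 95% interval of the difference ran from 1.94 to 2.69 (limma adjusted p = 0.000111). Under all alternatives its difference stayed between 2.14 and 2.45, and leaving out any 1 array gave an adjusted p of at most 0.00136.

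Fgfr3 encodes a receptor known for restraining bone growth and for activating mutations in bladder cancer. It read 6.18, 6.74 and 6.58 in control and 8.12, 8.01 and 8.07 in N1ICD. The N1ICD arrays were tightly grouped (SD 0.06) and the control arrays less so (SD 0.29). Fgfr3 rose by 1.57 ± 0.15 (limma adjusted p = 0.000486), and its adjusted p was at most 0.00467 when any 1 array was removed.

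Fgfr1, the receptor amplified in some lung cancers, changed less. It read 7.22, 7.38 and 7.24 in control and 7.85, 7.87 and 7.73 in N1ICD, and the groups did not overlap. It rose by 0.54 ± 0.10 (limma adjusted p = 0.0143). Leaving out control replicate 1, control replicate 3 or N1ICD replicate 2 ended the call, with adjusted p values up to 0.0649.

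Fgfr4, the main receptor for FGF19 and FGF15 in liver, went the other way. It read 6.67, 6.66 and 6.61 in control and 6.10, 6.34 and 6.14 in N1ICD, so that every N1ICD array was lower. It fell by 0.45 ± 0.10 on the log2 scale (limma adjusted p = 0.0333). Leaving out any array but N1ICD replicate 2 ended the call (adjusted p up to 0.111).

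Fgfrl1 encodes a receptor-like protein that binds FGFs but lacks the kinase domain. It read 7.61, 8.41 and 7.88 in control and 8.28, 8.82 and 8.41 in N1ICD. Replicate 2 was the highest array of both groups, and the groups overlapped. The difference of 0.54 ± 0.22 did not pass the test (limma adjusted p = 0.216), with a 95% interval from 0.04 to 1.03. The array gives each receptor a single gene-level value, so splice forms, such as the epithelial and mesenchymal forms of FGFR2, were not told apart.

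**Figure D2:**
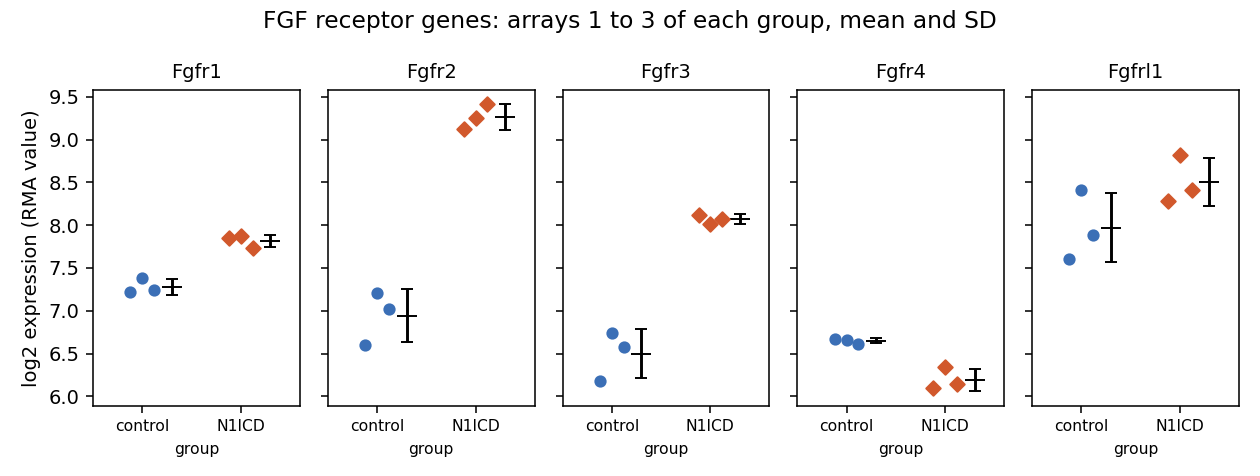
Log2 expression (RMA value) of the 5 receptor genes in the 3 control arrays (circles) and the 3 N1ICD arrays (diamonds), with black bars for the mean and SD. The points are drawn in replicate order. Fgfr2 and Fgfr3 show the widest gaps, Fgfr1 a narrow one, Fgfr4 a gap in the other direction, and the Fgfrl1 groups overlap.

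The DNA just before the start sites of the receptors with the largest rises, of the receptor that fell and of Etv5 is shown because the intracellular domain of Notch1 acts through the DNA-binding protein RBPJ. The core letters of the RBPJ site, TGGGAA, were searched on both strands in the 250 bases before each start in RefSeq's mouse annotation (GRCm38.p6). The sequences are written 5′ to 3′ along the gene, and capitals mark each match to the core, which reads TTCCCA where it lies on the other strand.
Fgfr2 promoter, chr7:130266809-130267058, minus strand: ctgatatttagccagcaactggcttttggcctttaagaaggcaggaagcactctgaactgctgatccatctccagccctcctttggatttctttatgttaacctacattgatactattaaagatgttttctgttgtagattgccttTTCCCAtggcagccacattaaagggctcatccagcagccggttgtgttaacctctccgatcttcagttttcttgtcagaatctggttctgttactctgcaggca
Fgfr3 promoter at the upstream start, chr5:33721474-33721723, plus strand: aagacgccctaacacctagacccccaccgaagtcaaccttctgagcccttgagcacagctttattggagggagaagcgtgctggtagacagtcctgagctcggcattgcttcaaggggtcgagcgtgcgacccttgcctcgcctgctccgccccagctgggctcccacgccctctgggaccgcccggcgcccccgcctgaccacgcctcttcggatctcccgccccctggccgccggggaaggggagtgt
Fgfr3 promoter at the downstream start, chr5:33722056-33722305, plus strand: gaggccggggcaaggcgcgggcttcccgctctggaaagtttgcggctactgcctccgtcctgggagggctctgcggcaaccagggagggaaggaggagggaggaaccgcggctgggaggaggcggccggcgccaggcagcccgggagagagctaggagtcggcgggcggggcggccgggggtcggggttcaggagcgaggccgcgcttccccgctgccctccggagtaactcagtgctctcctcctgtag
Fgfr4 promoter, chr13:55152568-55152817, plus strand: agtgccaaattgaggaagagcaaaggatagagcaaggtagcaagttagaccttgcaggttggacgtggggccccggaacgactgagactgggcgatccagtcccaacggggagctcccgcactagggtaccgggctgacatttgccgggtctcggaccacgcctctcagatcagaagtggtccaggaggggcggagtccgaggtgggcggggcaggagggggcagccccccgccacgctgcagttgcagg
Etv5 promoter at the downstream start, chr16:22438369-22438618, minus strand: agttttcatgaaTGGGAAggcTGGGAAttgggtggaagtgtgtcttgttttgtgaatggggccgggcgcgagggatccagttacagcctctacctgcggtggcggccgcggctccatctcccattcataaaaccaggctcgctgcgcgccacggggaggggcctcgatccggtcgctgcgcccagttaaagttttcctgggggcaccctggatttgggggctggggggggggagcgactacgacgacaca

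The Fgfr2 stretch held 1 match, whose first base lies 104 bases before the start, on the strand opposite the gene. The Etv5 stretch held 2 matches, at 238 and 229 bases before the start, on the strand of the gene, and the upstream start of Etv5 held 0. Neither start of Fgfr3 and no start of Fgfr4 held one in this window. RefSeq's table listed 28 of the 38 genes, with 37 starts, and 7 of these starts (18.9%) held the core, against 21.6% of all 32851 starts of the table. The other matches lay before Fgf7, Fgf10, Fgf12, Fgfrl1 and Spred2, none of which passed the test. No listed start of the changed genes Fgf13, Fgf14 and Etv1 held the core, and the changed genes Fgfr1 and Fgf15 were not listed. The 8-base cAMP response element TGACGTCA was found before 0 of the 37 starts and before 1.5% of all starts. A match of these letters is a description of the sequence and not a measured binding site.

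The Sprouty and Spred proteins block the step from the receptor to the RAS-ERK cascade. Of these 7 genes, 0 passed the limma test in either direction, next to 7.1% of all genes tested. With 7 genes, this count does not set them apart from all genes. Their differences ranged from -0.53 to 0.14 with a median of -0.05. Spry1 read 6.38, 6.32 and 6.65 in control and 6.13, 5.71 and 5.92 in N1ICD. Every N1ICD array lay below every control array. The difference of -0.53 ± 0.14 did not pass the test (limma adjusted p = 0.0648), and over the alternatives the adjusted p lay between 0.0266 and 0.201. Spry4 read 7.49, 6.91 and 7.38 in control and 7.07, 6.71 and 6.94 in N1ICD, with overlap through control replicate 2. Its difference was -0.35 ± 0.17 (limma adjusted p = 0.298).

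Spry2 stayed in a narrow range, with 7.56, 7.43 and 7.44 in control and 7.54, 7.48 and 7.56 in N1ICD. Its difference was 0.05 ± 0.09, and the 95% interval from -0.16 to 0.26 leaves out a change as large as that of any receptor called here. Spred1 read 8.49, 8.71 and 8.91 in control and 8.48, 8.66 and 8.82 in N1ICD, nearly the same 3 values in both groups. Its difference was -0.05 ± 0.14, with a sign that turned positive without control replicate 3 (0.05), without N1ICD replicate 1 (0.04) and under cyclic loess (0.02). Spred2 was lower on every N1ICD array (9.06, 8.78 and 9.04) than on the control arrays (9.17, 9.10 and 9.16), with a difference of -0.18 ± 0.11 (limma adjusted p = 0.415). Spred3 and Spry3 differed by 0.14 ± 0.15 and 0.10 ± 0.12, and the control mean of Spry3, 3.83, lay below every array median.

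Dusp6 encodes the cytoplasmic phosphatase that removes the activating phosphates from ERK. It read 10.37, 9.85 and 10.33 in control and 9.88, 9.66 and 10.13 in N1ICD. The groups overlapped, and replicate 2 was the lowest array of each. The difference of -0.29 ± 0.17 did not pass the test (limma adjusted p = 0.412), with a 95% interval from -0.69 to 0.11. A second, dimmer probe set differed by -0.38 ± 0.17, also in the negative direction.

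Etv1, Etv4 and Etv5 form the PEA3 group of ETS transcription factors, which carry FGF signals into gene expression in branching organs and neurons. Etv5 read 6.80, 6.75 and 6.80 in control and 5.87, 6.07 and 6.07 in N1ICD. The N1ICD arrays were all lower, and the control arrays hardly varied. Etv5 fell by 0.77 ± 0.10 on the log2 scale (limma adjusted p = 0.00253), or 1.71-fold, and removing any 1 array gave an adjusted p of at most 0.0137. Its second probe set, with a control mean of 5.16, differed by -0.13 ± 0.10, and the mean over both probe sets differed by -0.45.

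Etv1 read 5.86, 5.77 and 5.90 in control and 6.31, 6.17 and 6.42 in N1ICD, with every N1ICD array higher. It rose by 0.46 ± 0.10 (limma adjusted p = 0.0351). Removing any of the 6 arrays ended this call (adjusted p up to 0.13), as did quantile normalization again (adjusted p = 0.0519) and equal array medians (adjusted p = 0.0708). Its second probe set differed by 0.17 ± 0.19, and the mean over both by 0.31 (adjusted p = 0.154). Etv4 read 6.08, 5.94 and 6.18 in control and 6.09, 5.77 and 5.93 in N1ICD. The groups overlapped, with a difference of -0.14 ± 0.12 (limma adjusted p = 0.587).

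**Figure D3:**
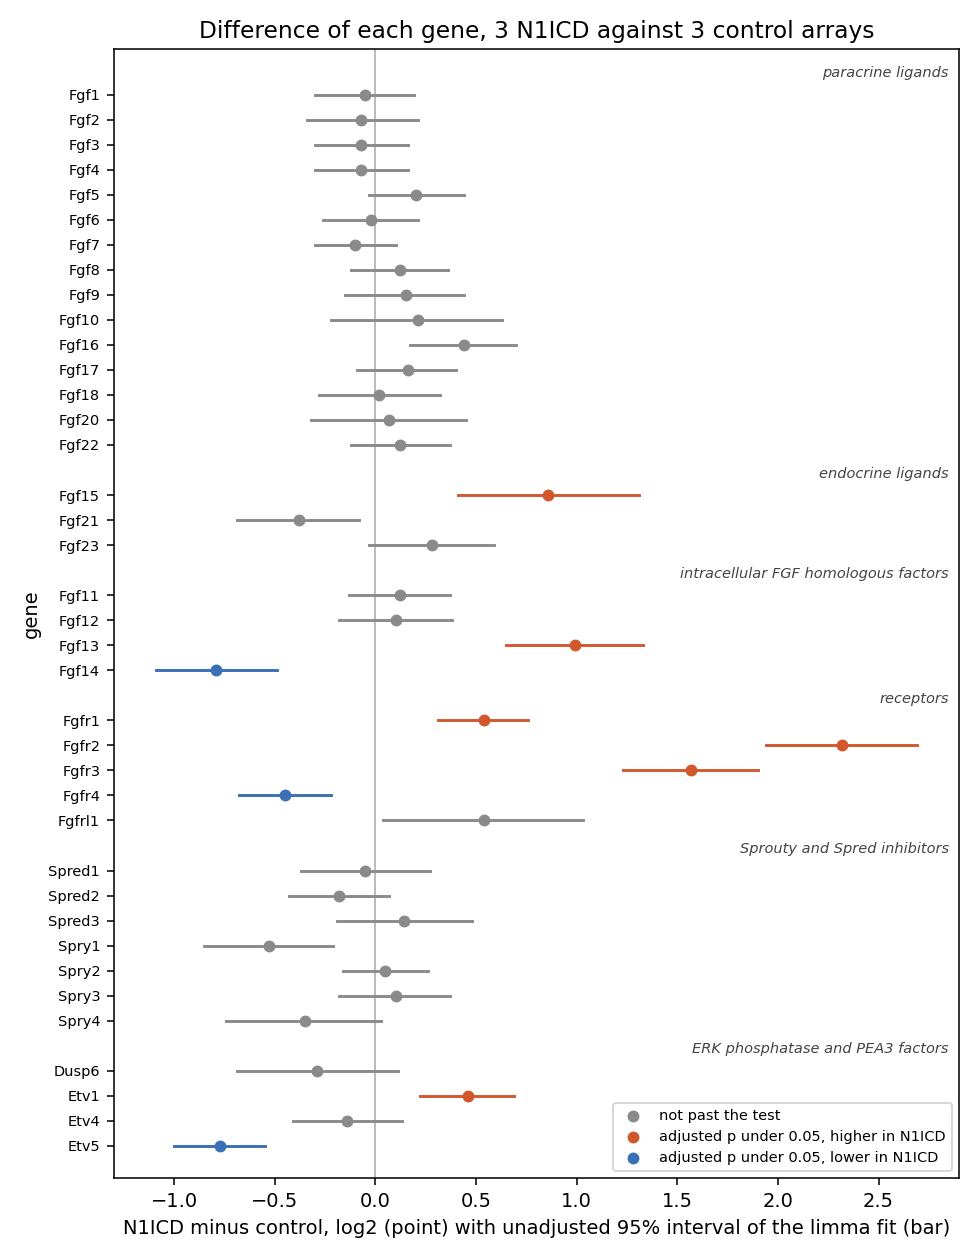
Difference between the 3 N1ICD and the 3 control arrays (log2) for the 38 genes, with the unadjusted 95% interval of the limma fit. Orange genes rose, blue genes fell and grey genes did not pass the test. The orange points of Fgfr2 and Fgfr3, at 2.32 and 1.57, lie farthest from 0.

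The intracellular FGF homologous factors Fgf11 to Fgf14 share the FGF fold but are not secreted. They bind voltage-gated sodium channels in neurons and tune their opening. Fgf13 read 7.58, 7.81 and 8.10 in control and 8.66, 8.96 and 8.85 in N1ICD, all N1ICD arrays being higher. It rose 1.99-fold (0.99 ± 0.15, limma adjusted p = 0.00603). Fgf14 read 10.07, 10.02 and 10.29 in control and 9.34, 9.14 and 9.53 in N1ICD, all N1ICD arrays being lower. It fell by 0.79 ± 0.13 on the log2 scale (limma adjusted p = 0.00932). Both calls remained without any 1 array, with adjusted p values up to 0.0313 for Fgf13 and 0.0367 for Fgf14. Fgf12 (8.57 ± 0.13 in control and 8.67 ± 0.17 in N1ICD) and Fgf11 (5.50 ± 0.16 and 5.62 ± 0.04) differed by less than the SD of the control arrays, by 0.10 ± 0.12 and 0.12 ± 0.11.

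Of the 9 changed genes, Fgfr2, Fgfr3, Fgf13, Fgf14 and Etv5 kept their call when any 1 array was left out. The other 4, Fgfr1, Fgfr4, Fgf15 and Etv1, lost it without at least 1 array, and also when all probe sets of the array were tested (adjusted p between 0.0592 and 0.122). The exact two-sided permutation test of a single gene cannot go below p = 0.1 with 3 against 3 arrays, so these calls rest on limma's estimate of the spread across all genes.

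**Figure D4:**
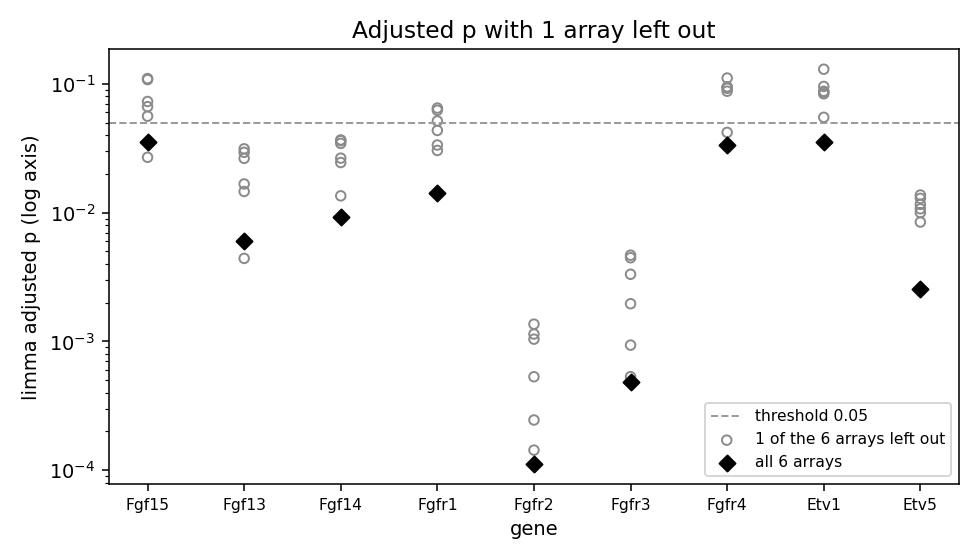
Limma adjusted p (log axis) of the 9 changed genes with all 6 arrays (black diamonds) and with each array left out in turn (open circles). The dashed line is the threshold of 0.05. All circles of Fgfr2, Fgfr3, Fgf13, Fgf14 and Etv5 lie under it, and all 6 circles of Etv1 lie above it.

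Other genes of the pathway were taken from 4 lists. Of 104 measured genes, 18 rose and 10 fell (26.9%, next to 7.1% of all genes tested), and their median difference was 0.01. The listed genes were brighter, with a median level of 7.64 against 6.2 for all genes. With only genes above the median level tested, 19 of 86 listed genes rose and 13 fell. Of all 11090 genes in that test, 2197 changed. That test also adjusted over fewer genes, and how far the contrast goes with expression level was not tested. Of the 28 genes changed in the main fit, 12 kept their call without any 1 array. Removing control replicate 1, control replicate 2, N1ICD replicate 2 and N1ICD replicate 3 in turn left 11, 10, 8 and 11 rises. Removing control replicate 2, control replicate 3, N1ICD replicate 1 and N1ICD replicate 2 in turn left 4, 4, 6 and 4 falls.

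The genes that present FGFs to their receptors changed in both directions. Of 31 measured co-receptors, ligand-binding genes and heparan sulfate genes, 8 rose and 3 fell, with a median of 0.08. Gpc4, a cell surface proteoglycan that carries heparan sulfate, read 5.32, 4.68 and 5.24 in control and 8.22, 8.08 and 8.15 in N1ICD. This was an 8.39-fold rise (3.07 ± 0.17, limma adjusted p = 2.5e-05), from a control mean of 5.08 that lay below every array median. Sulf1, which trims sulfate groups from heparan sulfate outside the cell, read 5.30, 5.12 and 5.17 in control and 7.0, 7.01 and 7.38 in N1ICD and rose by 1.93 ± 0.13. Hs6st1, which adds sulfate groups at the same position of the sugar, rose by 1.19 ± 0.12. The proteoglycan gene Sdc2 rose by 1.52 ± 0.26, with N1ICD replicate 1 (7.92) below the other two (8.79 and 8.93), and missed the threshold once N1ICD replicate 2 was removed (adjusted p = 0.0559). The falls were the glypicans Gpc1 (-0.55 ± 0.11) and Gpc2 (-0.58 ± 0.12) and the FGF receptor partner Flrt3 (-0.64 ± 0.16). The call of Gpc1 ended on removal of any array but N1ICD replicate 1 (adjusted p up to 0.0889) and that of Flrt3 on removal of any array but N1ICD replicate 3 (adjusted p up to 0.152). The call of Gpc2 ended, with adjusted p values up to 0.0984, on removal of any array but control replicate 1 and N1ICD replicate 3.

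The core of the cascade between receptor and ERK held a single change. Of 22 measured adaptors, RAS regulators and kinases, 1 rose and 0 fell by limma (4.55%, next to 7.1% of all genes tested). With so few genes, this count does not set the list apart from all genes. An unadjusted limma p under 0.05 was seen in 3 of the 22 and in 4408 of all 22180 genes. The median difference of the 22 was 0.01. The single rise was Sos2, a RAS exchange factor (0.55 ± 0.11, limma adjusted p = 0.0252), whose call ended on removal of any of the 6 arrays (adjusted p up to 0.103). Of the 30 genes listed, 8 were not analysed here.

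Other inhibitors of the pathway split. Of 21 measured, 2 rose and 4 fell, with a median of -0.09. Dusp4, a nuclear phosphatase of ERK and related kinases, read 9.20, 9.25 and 9.44 in control and 8.13, 8.10 and 8.34 in N1ICD and fell by 1.11 ± 0.11 (limma adjusted p = 0.000816). Dusp5, a nuclear phosphatase of ERK, read 8.11, 8.20 and 8.30 in control and 7.12, 7.01 and 7.43 in N1ICD and fell by 1.02 ± 0.13 (limma adjusted p = 0.00257). In both, every N1ICD array was lower, and both calls held without any 1 array. Dusp1, which acts mainly on the stress kinases, fell by 0.44 ± 0.10, a call that ended on removal of any array but N1ICD replicate 3 (adjusted p up to 0.125). Peak1 also fell (-0.84 ± 0.12), although it encodes a scaffold that is better known for promoting growth factor signaling than for inhibiting it. The rises were Lrig1 (0.93 ± 0.11), which promotes the breakdown of growth factor receptors, and Errfi1 (0.80 ± 0.16), an inhibitor of the EGF receptor. The call of Errfi1 ended, with adjusted p values up to 0.0677, on removal of N1ICD replicate 2, control replicate 1 or control replicate 2. Il17rd, which encodes the FGF inhibitor Sef, differed by -0.01 ± 0.09.

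Genes commonly raised by ERK, listed with related ETS factors, changed in either direction. By the test 7 of the 30 measured rose and 3 fell, with a median of 0.00. Ccnd1, a G1 cyclin that ERK and Notch are both known to raise, rose by 5.41 ± 0.17. Ier3 rose by 1.53 ± 0.13, the ephrin receptor gene Epha4 by 1.09 ± 0.17 and Phlda1 by 0.81 ± 0.11. The immediate early factor Egr1 read 8.93, 8.65 and 9.0 in control and 8.20, 7.72 and 8.06 in N1ICD. It fell by 0.86 ± 0.15 (limma adjusted p = 0.0127). Jun, also an immediate early gene, rose by 0.74 ± 0.14, a call that ended, with adjusted p values up to 0.0694, on removal of control replicate 2, N1ICD replicate 2 or N1ICD replicate 3. The calls of Ccnd1, Ier3, Epha4, Phlda1 and Egr1 held without any 1 array, that of Egr1 narrowly (adjusted p up to 0.0493). The remaining changes were rises of Fos (0.69 ± 0.16) and Ets1 (0.56 ± 0.12) and falls of Egr2 (-0.57 ± 0.13) and Vgf (-0.50 ± 0.10). Each of these calls ended without at least 1 array, with limma adjusted p values up to 0.142, 0.119, 0.13 and 0.0924.

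**Figure D5:**
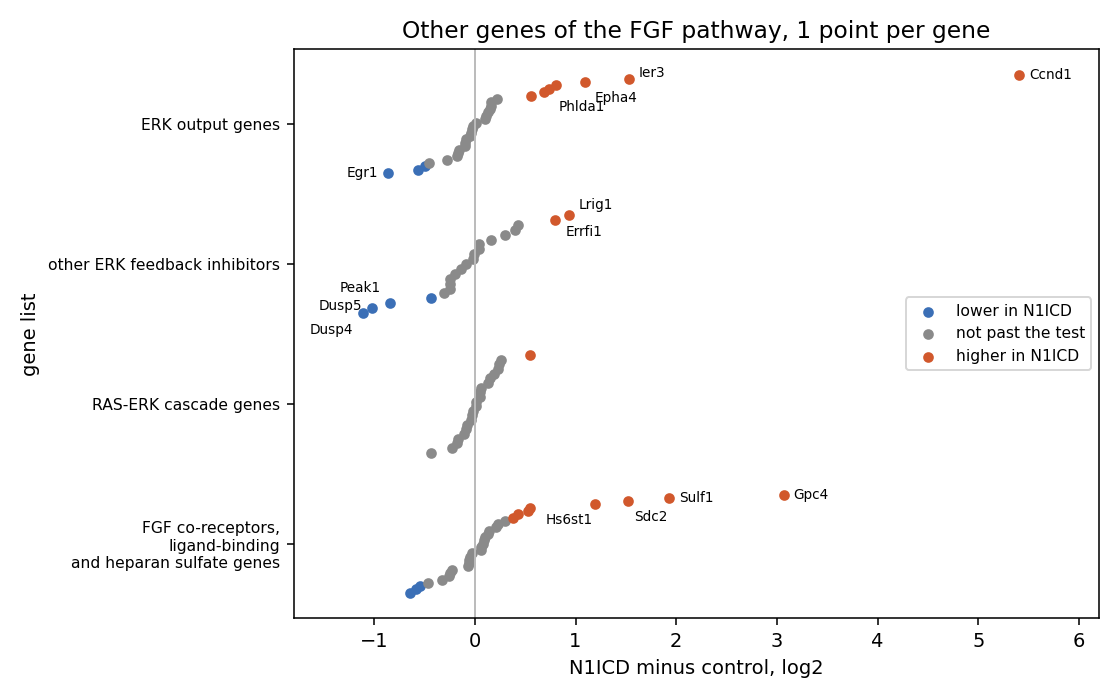
Difference between N1ICD and control (log2) of the 104 other pathway genes, 1 point per gene, sorted within each of 4 lists. Orange points rose, blue points fell and grey points did not pass the test, with names for changed genes past 0.8 in size. The RAS-ERK cascade genes lie close to 0, with 1 rise, and Ccnd1 lies far to the right at 5.41.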

How the data were processed

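Total RNA of the 6 samples was measured on 1 array each. The deposited log2 values were used; the authors made them with RMA, per the submitters' processing notes, which give no version. Base 2 was taken because values reach 14.09, above 11.09, the largest that natural logarithms of 16-bit intensities can reach. RMA forces one distribution on all arrays. It hides changes in RNA content per cell and shrinks differences of dim probe sets. The build behind the probe sets was not stated in these sources.

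Of 41345 probe sets, the platform annotation pairs 23521 with 1 gene symbol and 1814 with several. Each gene was represented by its brightest single-symbol probe set over the 6 arrays, which left 22180 genes. Of the 38 genes described, 5 had a second probe set. Groups came from the labels. N1ICD was set against control with limma (version 3.58.1, R version 4.3.3): lmFit, then eBayes, two-sided, adjusted by Benjamini-Hochberg over all genes at a threshold of 0.05. Files were read with data.table (version 1.17.8), and figures were drawn with matplotlib (version 3.10.9). Errors are the SE of the fit for differences and the SD over 3 arrays for means. The 95% intervals are unadjusted.

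The genes and lists were chosen with earlier results of these data known. Named in full were all changed members and 13 receptors, inhibitors and ETS factors whatever their result. Of each other list, up to 6 changed genes were named by size. The other members and Kl, Klb, Gpc1, Il17rd, Fos, Ets1, Egr2 and Vgf were added after their values were seen. Of 116 listed pathway genes 104 were measured. The alternatives were other normalizations, filters on dim genes, probe set rules, variance models, array weights, a threshold of 0.01, a replicate block and leaving out each array. On simulated data with 22180 genes, 67 genes were changed by 0.5, 67 by 1 and 66 by 2 (log2). Of these, 16.4%, 62.7% and 95.5% were called, with 3 false calls, so changes of 0.5 were often missed there. The data held far more calls, 1574 genes, and more changed genes loosen the Benjamini-Hochberg adjustment. The simulated shares are therefore not detection rates for the data.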

Additional observations from a re-analysis of the deposited data

How the results depend on the processing

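The signs and calls of 18 FGF genes and 28 other pathway genes were compared across 17 alternatives. Of 774 such values, 616 kept their direction and side of the threshold, 149 kept the direction and lost the call, 6 gained a call and 3 changed sign. The sign changes were all of Spred1, which ran from -0.16 to 0.05 with 1 array left out and was positive without control replicate 3 (0.05), without N1ICD replicate 1 (0.04) and, at 0.02, under cyclic loess, an alternative chosen after seeing the data. With all probe sets tested, which adjusts over more tests, 3 FGF genes rose, and 9 other pathway genes rose and 3 fell. With an adjusted p under 0.01, 3 FGF genes rose, and 8 other pathway genes rose and 3 fell. With 1 array left out, between 3 and 5 FGF genes rose and 2 to 3 fell, and between 8 and 13 other pathway genes rose and 4 to 8 fell, from fewer samples. Same-numbered arrays deviated together with correlations between 0.01 and 0.23, and 4 of 6 arrays were closest to their own number. These values do not settle whether the numbers pair the samples, and the main fit left pairing out. With the replicate block, 6 FGF genes rose and 2 fell, 14 other pathway genes rose and 10 fell, Fgfrl1 passed the test (adjusted p = 0.0334) and Fgf15 and Fgfr4 did not. No background or detection value limits the dim probe sets, which include most ligands.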
